A study of Mus musculus with 12 samples.

Results

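Mouse embryonic stem cells (mESC) lacking PROSER1 and the same line with PROSER1 put back were compared by RNA-seq, both kept in the stem cell state. The comparison rests on 4 of the 12 libraries of the series, 2 of KO+Rescue mESC against 2 of PROSER1 KO mESC, taken by their genotype and stage labels. The other 8 libraries are 2 of wild-type (WT) mESC and, from day 2 of culture in N2B27, 2 each of WT, KO and KO+Rescue cells. N2B27 is a medium without serum that lets mESC differentiate, here for 48 hours. By the study's methods, RNA was first taken when cells were plated in this medium. The mESC libraries are read as that time point. Of 35976 genes in the table, the test covered the 15341 whose normalised counts averaged 10 or more across the 12 libraries.

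According to the study's methods, the mESC lines came from blastocysts of TET2 fl/fl mice and grew without feeder cells in serum medium with LIF and inhibitors of the kinases MEK and GSK3. The KO line was a clone grown from 1 sorted cell after CRISPR editing. KO+Rescue cells carry a PiggyBac insert of the Proser1 coding sequence with a C-terminal FLAG tag and blasticidin resistance, and were selected in blasticidin and subcloned. Re-expression, selection and the picking of a subclone therefore cannot be told apart in this comparison. Libraries of a group are labelled as biological replicates, but nothing tells whether their cultures were kept apart, so each p-value reflects only how far these libraries scatter. Columns carry the letters A and B, which name the libraries here and were not matched to replicate numbers. KO and KO+Rescue columns are named by a line code, and their reading as these genotypes is an inference.

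PROSER1 is a proline- and serine-rich protein that binds the TET enzymes, which oxidise 5-methylcytosine and so start the removal of DNA methylation. It sits in assemblies with TET proteins and OGT, the enzyme that adds O-linked N-acetylglucosamine to proteins. In mESC, TET activity keeps many enhancers and promoters lowly methylated, while the transcription factors Pou5f1, Sox2 and Nanog hold the pluripotent state.

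The guide that made the KO line is shown because it fixes which part of Proser1 the edit could change. Its target lies on chr3:53371720-53371738 of GRCm39, on the plus strand, inside exon 1 and inside the coding sequence, with 1 match on that chromosome. The guide letters are in lower case and the adjoining PAM, read from the genome, is in capitals.
Proser1 guide target: gtgctggatgaaattcgaaAGG

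The 4 libraries held 49732236 and 44967373 reads (KO A and B) and 55343981 and 38634668 reads (KO+Rescue A and B), and KO+Rescue B was the shallowest of the 12. KO+Rescue B also stood apart in that cytosolic ribosomal protein genes took 23.3% of its reads, against 17.4% and 19.7% in KO A and B and 18.3% in KO+Rescue A. The defining pluripotency transcripts were abundant in all 4 libraries, with Pou5f1 at 119841 and 129356 normalised counts in KO and 113279 and 132326 in KO+Rescue. A list of 19 fibroblast and feeder markers summed to between 2177 and 2510 normalised counts in KO and between 1533 and 1777 in KO+Rescue, and Postn, Lum and Dpt were at 0 in all 4. None of its 12 tested members passed in limma, edgeR or DESeq2, and 2 had an unadjusted p under 0.05 in limma. Summed transcripts of chromosome Y genes were at 17.8 and 31.5 normalised counts in WT mESC, at 14291 and 14881 in KO and at 12582 and 14146 in KO+Rescue. Both KO-derived groups thus differ from WT in their Y transcripts, which touches every WT value given below, and the reason was not tested.

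Proser1 itself was the first check of the labels. It had 576 and 502 normalised counts in KO A and B and 2828 and 3090 in KO+Rescue A and B, where WT mESC had 889 and 550. Both KO+Rescue libraries lay far above every KO and WT library, while KO and WT overlapped. The change of KO+Rescue over KO was 2.46 ± 0.20 on the log2 scale (SE, n = 2 libraries per group), a 5.49-fold rise, with an adjusted p of 0.000222 by limma. KO against WT, a comparison in which 9.48% of genes were called, differed by -0.38 (adjusted p = 0.215 by limma), so transcripts of the edited gene were still counted and its RNA level is no check of the missing protein. Reads from the inserted coding sequence and from the endogenous gene were counted together.

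Across all tested genes, a small share changed. At an adjusted p under 0.05 by limma, 232 of 15341 genes were called, a share of 1.51%, of which 73 rose (0.476%) and 159 fell (1.04%) in KO+Rescue. Of these, 47 rose and 102 fell by at least 2-fold. The fitted change of the median gene was 0.03 on the log2 scale, and the smallest called change was 0.49. An unadjusted p under 0.05 was found for 2049 genes (13.4%), and in 6977 (45.5%) the KO and KO+Rescue values did not overlap, so that a lack of overlap alone says little with 2 libraries a group. By edgeR on the recovered reads 159 genes were called (1.04%; 35 rose and 124 fell), by DESeq2 386 (2.52%; 131 rose and 255 fell), and 153 were called by all 3 tools. The split between rising and falling genes moved with the scaling: with libraries set to equal totals, which shifted the median gene by -0.12, 23 rose and 142 fell.

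**Figure D1:**
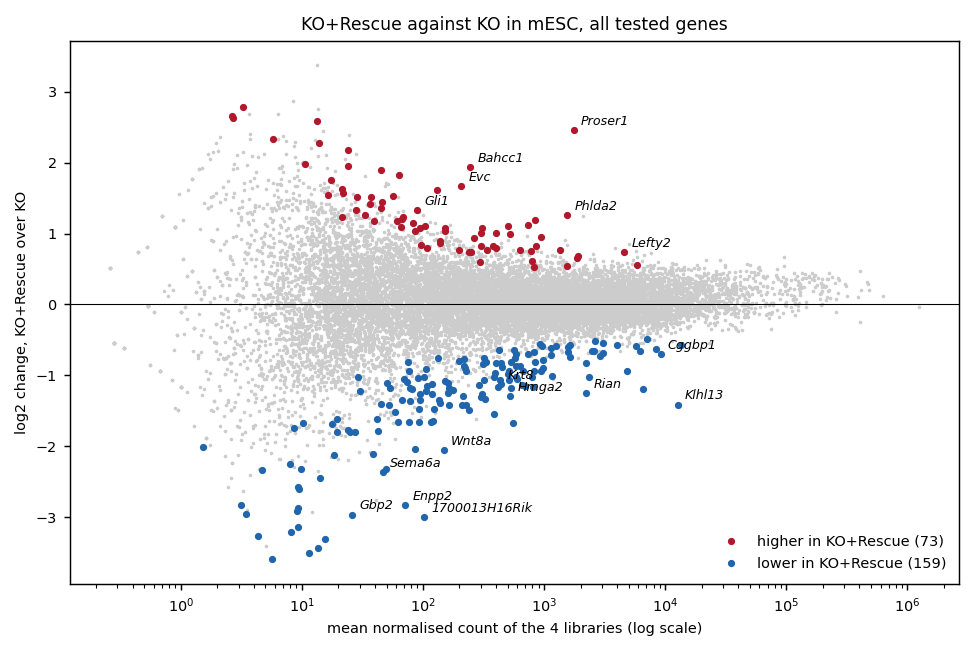
Each point is a tested gene, with the mean normalised count over the 4 libraries on a log axis and the log2 change of KO+Rescue over KO mESC on the vertical axis, leaving out 21 genes at 0 in all 4. The 73 genes called higher are in red and the 159 called lower in blue, and Proser1 stands at 2.46 among the rising genes.

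The calls rest on a spread estimated over all 12 libraries. Fitted on the 4 libraries alone, only Proser1 passed (adjusted p = 0.0101 by limma), with 2038 genes at an unadjusted p under 0.05, and on the 6 mESC libraries 13 genes passed. Leaving out KO A gave 22 called genes, KO B 44, KO+Rescue A 170 and KO+Rescue B 44. The 17 genes that kept their call whichever of the 4 was left out were Proser1, Bahcc1 and Evc, which rose, and Slc40a1, Hmga2, Ssbp2, Enpp2, Fam84b, Bin1, Wnt8a, Sema6a, Sytl1, Cald1, Htr3a, Klhl13, 1700013H16Rik and Tmem164, which fell. Any other called gene named here lost its call without at least 1 of the 4 libraries. Medians of gene lists, given below, moved too: without 1 of the 4 libraries the median changed by over 1.5 times in 30 of 38 lists, and in 15 of these its sign turned. The 8 lists that stayed within 1.5 times were trophoblast, actin and adhesion, hedgehog, cholesterol synthesis, LIF signalling, neuroectoderm, p53 targets and fibroblast markers.

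**Figure D2:**
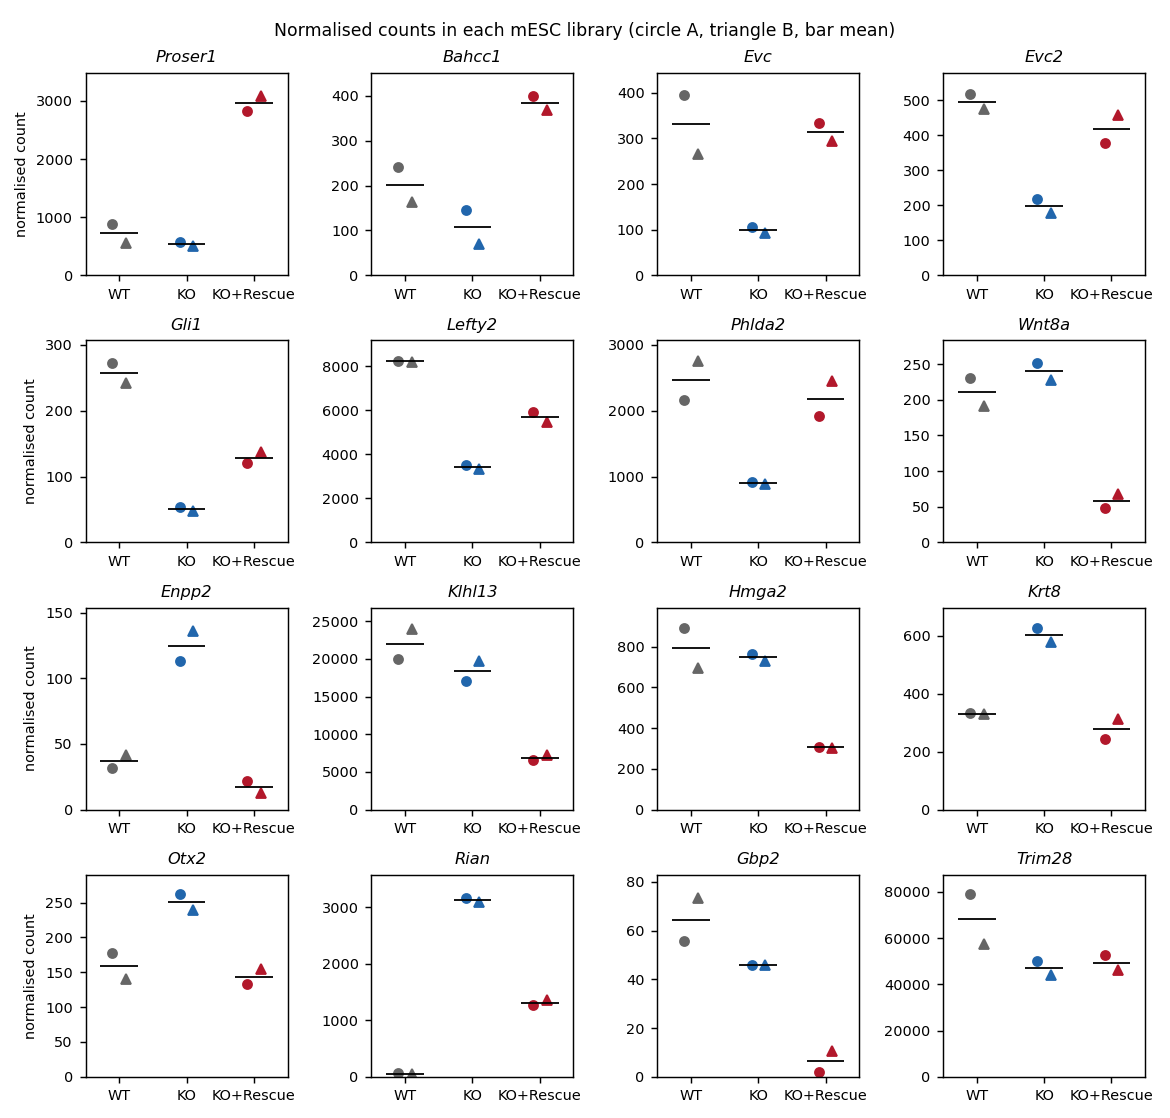
Normalised counts of 16 genes in the 6 mESC libraries, with circles for library A, triangles for library B and a bar at the mean of WT, KO and KO+Rescue. Proser1 reached 2828 and 3090 in KO+Rescue, while Klhl13 fell to 6614 and 7213 from 17096 and 19773 in KO.

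Among the rising genes, Bahcc1 had the next largest change of those named by rule. This gene encodes a chromatin protein that reads trimethylated histone H3 lysine 27. It had 145 and 68.8 normalised counts in KO, 400 and 369 in KO+Rescue and 242 and 163 in WT. The 2 KO+Rescue libraries exceeded both others, and the change was 1.93 ± 0.28 (adjusted p = 0.00647 by limma).

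Hedgehog signalling gave 2 of the rising genes, of 12 tested members of its list, with none falling and a list median of 0.17 against 0.03 for all genes. Gli1, a transcription factor and a standard readout of the pathway, had 53.8 and 47.2 normalised counts in KO, 120 and 137 in KO+Rescue and 273 and 242 in WT. KO+Rescue thus lay between KO and WT without overlapping either, at 1.33 ± 0.28 above KO (2.52-fold, adjusted p = 0.0339 by limma) and 1.00 below WT. Gli2, which acts upstream of Gli1, rose from 610 and 562 to 1026 and 947, a change of 0.75 (adjusted p = 0.0451 by limma, 0.0558 by edgeR). The receptor gene Ptch1, itself a pathway target, had 562 and 530 normalised counts in KO and 606 and 627 in KO+Rescue, a difference of 0.17 that did not pass (adjusted p = 0.778 by limma). Smo, the signal transducer, differed by 0.42 (adjusted p = 0.129 by limma). Ptch1 and Smo were named after their values were seen. With libraries set to equal totals neither Gli1 nor Gli2 passed, and Gli2 also lost its call with TMM scaling.

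Evc and Evc2 encode partner proteins at the base of the primary cilium that pass the hedgehog signal on from Smo, and were not in that list. They lie head to head on chromosome 5 (GRCm38), with 1530 bases between Evc (chr5:37288970-37336947) and Evc2 (chr5:37338478-37425055). Evc had 105 and 91.7 normalised counts in KO, 335 and 294 in KO+Rescue and 395 and 267 in WT. Evc2, chosen after its values were seen, had 217 and 179 in KO, 380 and 458 in KO+Rescue and 518 and 474 in WT. In both genes each KO+Rescue library lay above each KO library. Evc rose by 1.66 ± 0.21 (3.17-fold, adjusted p = 0.00289 by limma) and Evc2 by 1.07 ± 0.18 (2.10-fold, adjusted p = 0.0114 by limma). With libraries set to equal totals Evc kept its call and Evc2 lost it. In KO+Rescue against WT, where 18.2% of genes were called, Evc differed by -0.05 (adjusted p = 0.89) and Evc2 by -0.25 (adjusted p = 0.336), neither passing in limma.

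In the Nodal pathway, a TGF-beta family signal active in mESC, 2 of 18 tested members rose and none fell (median 0.11). Both were its secreted inhibitors, which are also direct targets of the pathway. Lefty2 had 3514 and 3340 normalised counts in KO, 5944 and 5471 in KO+Rescue and 8260 and 8220 in WT. Lefty1 had 1085 and 927, then 1786 and 1646, with WT at 1808 and 1830. KO and KO+Rescue did not overlap for either gene. Lefty2 rose by 0.74 ± 0.12 (1.66-fold, adjusted p = 0.0124) and Lefty1 by 0.77 ± 0.15 (1.71-fold, adjusted p = 0.0267), both by limma. Neither of them passed with libraries set to equal totals. The ligand gene Nodal differed by -0.20 and did not pass (adjusted p = 0.585 by limma), and was named after its value was seen.

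Single members of other signalling lists also rose. Fgf17, an FGF ligand, went from 631 and 656 normalised counts in KO to 1253 and 1247 in KO+Rescue, beside 1089 and 1080 in WT, a change of 0.96 ± 0.19 (adjusted p = 0.0238 by limma). In the same list of 14 tested FGF genes 1 fell, Fgfbp1, which encodes a protein that releases FGFs from the matrix, by 0.87 on the log2 scale (adjusted p = 0.0343 by limma). Crabp1, a cytosolic carrier of retinoic acid, was the 1 called gene of 17 in the retinoic acid list and rose from 184 and 216 to 382 and 419, still below the 712 and 742 of WT. Its change was 1.00 ± 0.16 (adjusted p = 0.0088 by limma). The imprinted growth restrainer Phlda2 had 921 and 893 in KO, 1920 and 2445 in KO+Rescue and 2169 and 2747 in WT, a rise of 1.26 ± 0.18 (adjusted p = 0.00549 by limma). For each of Fgf17, Crabp1 and Phlda2, both KO+Rescue values lay above both KO values. With libraries set to equal totals Crabp1 and Phlda2 kept their call, and Fgf17 lost it.

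The rest of the rising genes named by rule had low levels. Ankrd34a went from 21.3 and 16.2 normalised counts in KO to 72.1 and 71.2 (log2 change 1.89, adjusted p = 0.00899 by limma). Tmem181b-ps rose by 1.83 (adjusted p = 0.0132), but its reads cannot be parted with certainty from those of its near copy Tmem181a, which was also called, at 0.77 (adjusted p = 0.0162). Casq1, a calcium-binding protein of muscle, rose by 1.61, the noncoding RNA Lockd by 1.53, the AMP deaminase Ampd3 by 1.51, Cracr2b by 1.45, the clock gene Per3 by 1.41, Asphd2 by 1.36, the metallothionein Mt3 by 1.24 and Plk5 by 1.20. The adjusted p of these 8 in limma ran from 0.00998 (Asphd2) to 0.0481 (Ampd3). In edgeR Ampd3, Cracr2b, Per3, Mt3 and Plk5 did not pass. With libraries set to equal totals Tmem181a, Ampd3, Per3, Mt3 and Plk5 lost their call. Tdrd1, a piRNA pathway protein and the 1 called gene of 46 in the germline list, rose from 20.2 and 27 to 47.1 and 62.3 (adjusted p = 0.0426 by limma, 0.11 by edgeR).

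More genes fell than rose in limma, edgeR and DESeq2. Enpp2 encodes autotaxin, the secreted enzyme that makes lysophosphatidic acid. It had 113 and 136 normalised counts in KO, 22 and 12.5 in KO+Rescue and 32 and 41.7 in WT, so that KO was highest and KO+Rescue lowest with no overlap. The fall was 2.83 ± 0.27 on the log2 scale, 7.12-fold (adjusted p = 0.000418 by limma). Another gene, 1700013H16Rik on chromosome X, fell from 178 and 182 to 29.3 and 16 (7.98-fold, adjusted p = 0.0035 by limma), against 230 and 344 in WT.

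Wnt8a, a Wnt ligand, had 252 and 228 normalised counts in KO and 231 and 191 in WT, but 48.1 and 67.7 in KO+Rescue. Sema6a, a transmembrane guidance cue, had 78.4 and 78.2 in KO and 94.8 and 56 in WT, but 14.6 and 14.2 in KO+Rescue. For these 2 genes KO and WT overlapped, and KO+Rescue lay below both. Wnt8a fell by 2.05 ± 0.20 (4.15-fold, adjusted p = 0.000418 by limma) and Sema6a by 2.36 ± 0.21 (5.14-fold, adjusted p = 0.000362 by limma). Wnt8a was the 1 called gene of 19 in the Wnt target list, whose median of -0.30 became -0.05 without KO A.

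Some strong falls outside the naming rule were chosen after their values were seen. Klhl13, an X-linked adaptor of a cullin ubiquitin ligase, had 17096 and 19773 normalised counts in KO, 19994 and 23963 in WT and 6614 and 7213 in KO+Rescue. Hmga2, an architectural chromatin protein, had 765 and 728 in KO, 889 and 693 in WT and 305 and 305 in KO+Rescue. Bin1, a protein that bends membranes, had 576 and 562 in KO, 727 and 552 in WT and 211 and 180 in KO+Rescue. In each of the 3, both KO+Rescue values lay under all KO and WT values. Klhl13 fell by 1.41 ± 0.14 (adjusted p = 0.000418), Hmga2 by 1.29 ± 0.16 (adjusted p = 0.00289) and Bin1 by 1.54 ± 0.17 (adjusted p = 0.00123), all by limma. Htr3a, a serotonin receptor subunit, had 8.96 and 13.5 normalised counts in KO and was at 0 in both KO+Rescue libraries, where 3 counts correspond to 3.14 and 5.34.

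Other falling genes were higher in KO than in WT. Fam198b had 809 and 882 normalised counts in KO, 289 and 244 in KO+Rescue and 279 and 346 in WT. Meis2, a homeobox transcription factor, had 162 and 190, then 60.6 and 49.9, with WT at 51 and 35.6. In both genes the KO values stood above those of the other genotypes. Fam198b fell by 1.67 ± 0.24 (adjusted p = 0.00639) and Meis2 by 1.66 ± 0.26 (adjusted p = 0.0088) by limma, and KO+Rescue differed from WT by -0.23 and 0.36 (adjusted p = 0.527 and 0.343). The KO+Rescue libraries enter both comparisons, and the KO libraries also enter that of KO with WT, so these comparisons are not independent.

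Further falls named by rule were those of the neurofilament gene Nefm (2.32 on the log2 scale), the actin-binding Ablim1 (2.11), the iron exporter Slc40a1 (2.04), Rtn4rl1 (1.78), Ppp4r4 (1.66), the vesicle-docking Sytl1 (1.66), the integrin activator Fermt3 (1.66), Fam84b (1.65) and Cxx1c on chromosome X (1.62). Their adjusted p in limma ran from 0.00146 (Slc40a1) to 0.04 (Fermt3). Slc40a1 had 155 and 121 normalised counts in KO and 31.4 and 33.8 in KO+Rescue. Ablim1, Rtn4rl1 and Cxx1c did not pass in edgeR (adjusted p of 0.0559, 0.0526 and 0.0559).

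Trophoblast-associated genes, keratins among them, were some of those that fell. Of 11 tested trophoblast genes 3 fell and none rose, with a list median of -0.54. Krt8 and Krt18 encode the paired keratins of simple epithelia. Krt8 had 626 and 579 normalised counts in KO, 243 and 312 in KO+Rescue and 333 and 329 in WT. Krt18 had 431 and 363, 219 and 253, and 257 and 265 in the same order. KO was the highest group for both keratins, and the falls were 1.13 ± 0.15 (adjusted p = 0.0041) and 0.75 ± 0.14 (adjusted p = 0.0207) by limma. Esx1, an X-linked homeobox gene of the placenta, fell by 1.47 (adjusted p = 0.0217 by limma), from 128 and 146 to 47.1 and 49.9. A further keratin, Krt19, differed by -1.16 and did not pass in limma (adjusted p = 0.0683) or edgeR (0.0803), but was called lower by DESeq2 (0.0198) and in limma at equal totals (0.0492) and with TMM scaling (0.0491). Eomes, a T-box regulator in the same list, lay the other way, with 571 and 556 normalised counts in KO, 756 and 657 in KO+Rescue and 927 and 813 in WT, a difference of 0.32 that did not pass (adjusted p = 0.613 by limma). Krt19 and Eomes were named after their values were seen.

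The members of the trophoblast list summed to 5210 and 4968 normalised counts in KO and to 4200 and 4149 in KO+Rescue, and its further defining genes Elf5, Hand1 and Plac1 were under the mean of 10 needed for testing. In bulk RNA, fewer cells of a type and less RNA per cell cannot be told apart. The keratins also count in the list of 31 actin, matrix and adhesion genes, where 3 fell and none rose (median -0.28). Its remaining called member, the tight-junction gene Cldn4, had 4687 and 4915 in KO, 3294 and 3168 in KO+Rescue and 2597 and 2460 in WT, a fall of 0.57 (adjusted p = 0.027 by limma).

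Of 19 tested genes of the formative and primed states, 3 fell and none rose (median -0.18). Besides Wnt8a these were Grhl2 and Otx2. Grhl2, a transcription factor that opens epithelial enhancers, had 399 and 405 normalised counts in KO, 193 and 173 in KO+Rescue and 740 and 535 in WT, so that KO+Rescue was the lowest of the 3 genotypes. Its fall was 1.13 ± 0.18 (adjusted p = 0.0088 by limma). The claudin gene Cldn3 fell by 1.17, the splicing regulator Esrp1 by 0.65 and the transcription factor Elf3 by 0.94 on the log2 scale. These 3 were picked because they were called lower, and no list of epithelial genes was counted. Otx2, a homeobox factor of the exit from naive pluripotency, had 262 and 240 in KO, 133 and 155 in KO+Rescue and 178 and 140 in WT, a fall of 0.80 ± 0.15 (adjusted p = 0.0217 by limma). Otx2 was also the 1 called gene of 15 in the eye and craniofacial list. In the primitive endoderm list 1 of 11 tested genes, the endocytic adaptor Dab2, fell from 30.3 and 31 to 7.32 and 8.9 (adjusted p = 0.0301 by limma, 0.058 by edgeR).

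**Figure D3:**
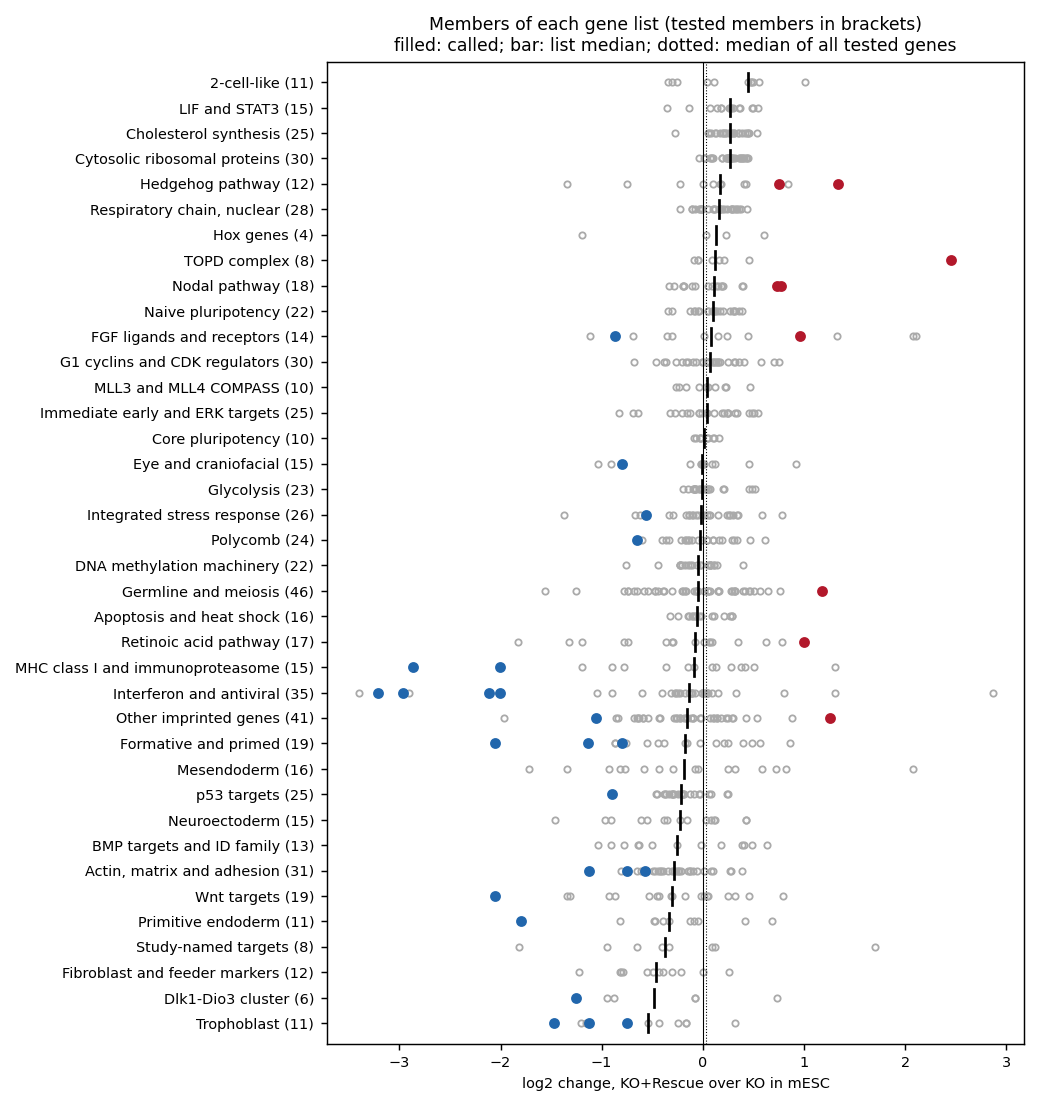
Each row is a gene list and each point a tested member at its log2 change of KO+Rescue over KO mESC, filled where called, with a bar at the list median and a dotted line at the all-gene median of 0.03. Of the 38 lists, 19 hold 0 called members, and the trophoblast list, with 3 falling of 11, has a median of -0.54.

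Guanylate-binding proteins (GBPs) are interferon-induced GTPases of cell-autonomous immunity. They supplied 3 of the 4 genes called lower by limma among 35 tested interferon and antiviral genes, with none rising (median -0.13). By edgeR 1 of the 35 was called lower and 0 higher. Gbp2, Gbp2b and Gbp3 lie in a cluster on chromosome 3. For each gene 250 bases before the first start in the RefSeq promoter table (GRCm38.p6, plus strand) are shown because the 3 genes fell together, with matches to the interferon-stimulated response element in capitals. It was searched on both strands as 2 copies of TTTC with any 2 bases between them. The windows are chr3:142620413-142620662 for Gbp2, chr3:142594597-142594846 for Gbp2b and chr3:142559794-142560043 for Gbp3. That start is the outermost of the RefSeq gene in Gbp2, but lies 31 bases inside the gene in Gbp2b and 28 in Gbp3, and distances are counted from it.
Gbp2: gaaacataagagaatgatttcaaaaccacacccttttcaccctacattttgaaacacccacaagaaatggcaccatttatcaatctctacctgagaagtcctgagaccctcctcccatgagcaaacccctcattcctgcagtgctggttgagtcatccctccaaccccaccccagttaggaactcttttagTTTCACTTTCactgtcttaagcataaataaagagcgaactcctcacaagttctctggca
Gbp2b: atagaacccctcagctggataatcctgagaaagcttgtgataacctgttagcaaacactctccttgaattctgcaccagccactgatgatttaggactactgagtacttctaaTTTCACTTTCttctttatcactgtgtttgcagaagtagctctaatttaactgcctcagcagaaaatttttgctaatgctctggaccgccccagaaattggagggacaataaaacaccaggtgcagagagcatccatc
Gbp3: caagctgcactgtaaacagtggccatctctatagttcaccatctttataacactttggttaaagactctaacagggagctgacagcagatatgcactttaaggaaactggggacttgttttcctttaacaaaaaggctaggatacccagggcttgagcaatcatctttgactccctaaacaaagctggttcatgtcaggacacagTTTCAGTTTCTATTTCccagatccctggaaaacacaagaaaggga
The match began 59 bases before this start in Gbp2 and 137 in Gbp2b, and Gbp3 had 2 overlapping matches, at 45 and 39. Of 27025 promoter windows of the same length, 3.04% held at least 1 match. A match is a description of letters, not a binding site. The motifs GAS (TTCNNNGAA, N being any base) and GLI (GACCACCCA) were searched as well, with 0 matches in the windows shown. Evc and Evc2 held 0 GLI matches, but only 0.211% of the 27025 windows held 1 or more, so their absence says little. Psmb8, which was also called lower, held 0 matches to the interferon element and 1 to GAS, a motif found in 7.18% of the windows.

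Gbp2 had 45.9 and 45.9 normalised counts in KO, 55.7 and 73.3 in WT and 2.09 and 10.7 in KO+Rescue. Gbp2b had 23.5 and 37.8 in KO, 33.2 and 59 in WT and 5.23 and 7.12 in KO+Rescue. Gbp3 had 15.7 and 14.8 in KO, 17.8 and 14.2 in WT and 2.09 and 0 in KO+Rescue. For all 3, KO+Rescue was lowest and KO overlapped WT or lay under it. Gbp2 fell by 2.96 ± 0.48 (7.80-fold, adjusted p = 0.00998 by limma, 0.00867 by edgeR). Gbp2b fell by 2.12 (adjusted p = 0.0217 by limma), which edgeR did not call (0.0559). Gbp3 had an adjusted p of 0.0189 in limma but of 0.0682 in edgeR and 0.0572 in DESeq2. A few reads decide these levels, since 3 counts correspond to 3.14 and 5.34 normalised counts in KO+Rescue A and B.

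Not every interferon gene moved with the GBPs. Gbp4 had 86.3 and 99.8 normalised counts in KO and 92 and 65.9 in KO+Rescue (log2 difference -0.25, adjusted p = 0.8 by limma). The immunoproteasome gene Psmb9 had 43.7 and 28.3 in KO, with KO+Rescue at 78.4 and 99.7, a difference of 1.30 that did not pass in limma (adjusted p = 0.105) or edgeR (0.189) but was called higher by DESeq2 (0.0469). Both were named after their values were seen. Psmb8, another immunoproteasome gene, was called by limma (adjusted p = 0.0254) on 3.36 and 2.70 normalised counts in KO against 0 in both KO+Rescue libraries, which is at or under the level of 3 counts, and neither edgeR (0.233) nor DESeq2 (0.286) called it. Tap2, a subunit of the peptide transporter for MHC class I, had 22.4 and 10.8 in KO, with KO+Rescue at 4.18 and 0 (adjusted p = 0.0348 by limma, 0.121 by edgeR). Psmb8 and Tap2 were the 2 called genes of 15 in the MHC class I list, whose median of -0.09 became 0.07 without KO+Rescue A and -0.18 without KO+Rescue B.

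In the imprinted Dlk1-Dio3 region 1 of 6 tested genes, Rian, was called, and it fell. This maternally expressed noncoding RNA, which hosts small nucleolar RNAs, had 3159 and 3094 normalised counts in KO, 1277 and 1352 in KO+Rescue and 65.2 and 40.7 in WT. The 3 genotypes did not overlap. KO+Rescue was 1.25 ± 0.21 below KO on the log2 scale (2.38-fold, adjusted p = 0.0127 by limma) and 4.65 above WT, while KO was 5.90 above WT. In the same region Meg3 had 214 and 204 in KO, 76.3 and 151 in KO+Rescue and 3.56 and 9.16 in WT, and its difference of -0.95 did not pass in limma (adjusted p = 0.271) or edgeR (0.107) but was called by DESeq2 (0.041). Mirg differed by -0.88 (adjusted p = 0.569 by limma). Meg3 and Mirg were named after their values were seen, and the 6 genes ran from -1.25 to 0.73 with a median of -0.48, which was -0.30 without KO+Rescue A. Rian overlaps other annotated transcripts, and whether the counting used strand is not given in the sources used here.

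Among 41 other imprinted genes 1 rose, Phlda2, and 1 fell, Grb10, an adaptor that restrains insulin signalling (median -0.16). Grb10 had 615 and 544 normalised counts in KO, 268 and 287 in KO+Rescue and 3792 and 2858 in WT, so that KO+Rescue was the lowest genotype. Its fall from KO was 1.06 ± 0.16 (2.08-fold, adjusted p = 0.00789 by limma), and KO was already 2.51 below WT.

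Partners of PROSER1 and the DNA methylation machinery came next. Of 8 TET and OGT assembly genes only Proser1 was called. Tet1 had 3323 and 3082 normalised counts in KO and 4156 and 4645 in KO+Rescue, a difference of 0.46 ± 0.20 (adjusted p = 0.329 by limma). None of 22 DNA methylation genes passed in limma or edgeR (3 at an unadjusted p under 0.05), and DESeq2 called 1, Dppa3. They had a median of -0.04 and fitted changes from -0.76 to 0.39. The corepressor Trim28, the member with the highest mean count, differed by 0.07 (adjusted p = 0.907 by limma), or by -0.049 with libraries set to equal totals. In the Polycomb list 1 of 24 fell, the PRC2 accessory subunit Aebp2, from 2940 and 3131 to 1918 and 1938 (0.65 on the log2 scale, adjusted p = 0.0217 by limma), and none of 10 MLL3 and MLL4 complex genes passed in any of the 3 tools or had an unadjusted p under 0.05.

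The core and naive pluripotency lists held no called gene among 10 and 22 tested by limma, edgeR or DESeq2 (medians 0.01 and 0.10), with 0 and 1 at an unadjusted p under 0.05. Pou5f1 differed by -0.02, with a sign that turned when KO B or KO+Rescue A was left out (0.031 and 0.088). No member passed in limma or edgeR either in 13 further lists, for which the tested genes, the median and the number at an unadjusted p under 0.05 follow. These were mesendoderm (16, -0.19, 4), neuroectoderm (15, -0.23, 3), immediate early and ERK genes (25, 0.04, 5), LIF signalling (15, 0.27, 4), BMP targets (13, -0.25, 6), 2-cell-like genes (11, 0.45, 0), apoptosis and heat shock (16, -0.05, 1), G1 regulators (30, 0.08, 7), glycolysis (23, -0.01, 3), cholesterol synthesis (25, 0.27, 10), the respiratory chain (28, 0.16, 0), Hox genes (4, 0.13, 1) and cytosolic ribosomal proteins (30, 0.26, 0). Calls of DESeq2 in these lists included T, Jun, Bmp4 and E2f2. Several of these medians hung on 1 library. Without KO+Rescue B the ribosomal median was -0.0016, the respiratory chain 0.0067, Hox -0.44, BMP -0.08, glycolysis 0.12, apoptosis 0.006 and immediate early 0.22. Without KO+Rescue A the last was -0.11, Hox 0.54 and ribosomal 0.55. Without KO A the mesendoderm median was 0.02, and without KO B the 2-cell-like one 0.16 and that of G1 regulators 0.05. Of 25 p53 targets 1 fell, the kinase gene Plk2, from 1332 and 1234 to 705 and 671 (adjusted p = 0.00685 by limma). Of 26 stress response genes 1 fell, the mTOR inhibitor Ddit4, by 0.56 (adjusted p = 0.0484 by limma, 0.0828 by edgeR).

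A list of 9 targets was chosen by the study on these samples, in its account of day 2, where KO was compared with WT. The study named them as genes bound by both PROSER1 and TET2 whose expression followed that of PROSER1, and showed them with KO+Rescue included. A lack of calls between KO+Rescue and KO in mESC therefore does not test that choice. Eya4 was under the mean of 10 across the 12 libraries. In mESC none of the other 8 genes passed in limma or edgeR. Their median was -0.37, or -0.12 without KO B and -0.06 without KO+Rescue B, with 2 at an unadjusted p under 0.05. Tagln, which the study also named, is given with them. Tbx15 differed by -1.81 (adjusted p = 0.0735) and Barx1 by 1.70 (adjusted p = 0.118), both by limma. Tbx15 passed only in limma with the library letter as a replicate block, a pairing that no label states. Prdm8 (-0.94), Mef2c (-0.65), Tagln (-0.49), Cbx8 (-0.33) and Pax6 (0.13) did not pass either. At day 2 the 8 tested targets had a median change of -1.25, with 1 called lower and 0 higher by limma. Untested Eya4 went from 21.4 and 34.4 normalised counts to 8.21 and 5.64 with PROSER1 put back at that stage. The study used these day 2 libraries in choosing the genes, so their day 2 changes are no separate support for that choice.

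By position, the falling genes were unevenly spread. RefSeq positions on GRCm38.p6 were found for 15077 of the tested genes (98.3%). Over all tested genes 1.04% fell, 0.476% rose and 46.1% had a fitted change below 0. On chromosome X 17 of 564 genes fell (3.01%) and 0 rose, with a median of -0.08. At day 2 the chromosome X median of KO+Rescue over KO was 0.005. On chromosome 16, from 60 Mb onwards, 7 of 95 genes fell (7.37%) and 0 rose, and 80 of the 95 (84.2%) had a fitted change below 0. The median there was -0.27, against 0.02 over the 357 genes before that point, of which 2 fell and 46.5% had a fitted change below 0. The split at 60 Mb was chosen after the changes in bins of 10 Mb were seen, so no test is given. Leaving out each of the 4 libraries kept the distal median between -0.28 and -0.31.

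The 7 called genes of distal chromosome 16 were Zfp654, Cggbp1, Usp25, App, Ifnar1, Rcan1 and Tmprss2. Cggbp1, which binds CGG repeats, had 11523 and 11217 normalised counts in KO, 7470 and 6511 in KO+Rescue and 10829 and 11092 in WT. App, the amyloid precursor, had 308 and 271, 163 and 148, and 226 and 158 in the same order. Ifnar1, a subunit of the type I interferon receptor, had 1989 and 1949 in KO, 1380 and 1273 in KO+Rescue and 1622 and 1473 in WT. KO+Rescue lay below KO for each without overlap, by 0.70 (adjusted p = 0.0114), 0.89 (adjusted p = 0.0301) and 0.57 (adjusted p = 0.0278) in limma. The others fell by between 0.64 (Usp25) and 1.74 (Tmprss2), and Tmprss2, at 3.14 and 3.56 in KO+Rescue, was called by neither edgeR nor DESeq2 (adjusted p of 0.142 and 0.156). Beside these, the median of the 95 genes for KO against WT was 0.49 and for KO+Rescue against WT 0.12. Both comparisons share libraries with this one. The first 10 Mb of the region differed from the rest. Its 8 genes, with Zfp654 and Cggbp1 among them, had medians of -0.02 and -0.63 in these comparisons. In the later bins the medians were 0.45 to 0.65 and 0.12 to 0.34.

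**Figure D4:**
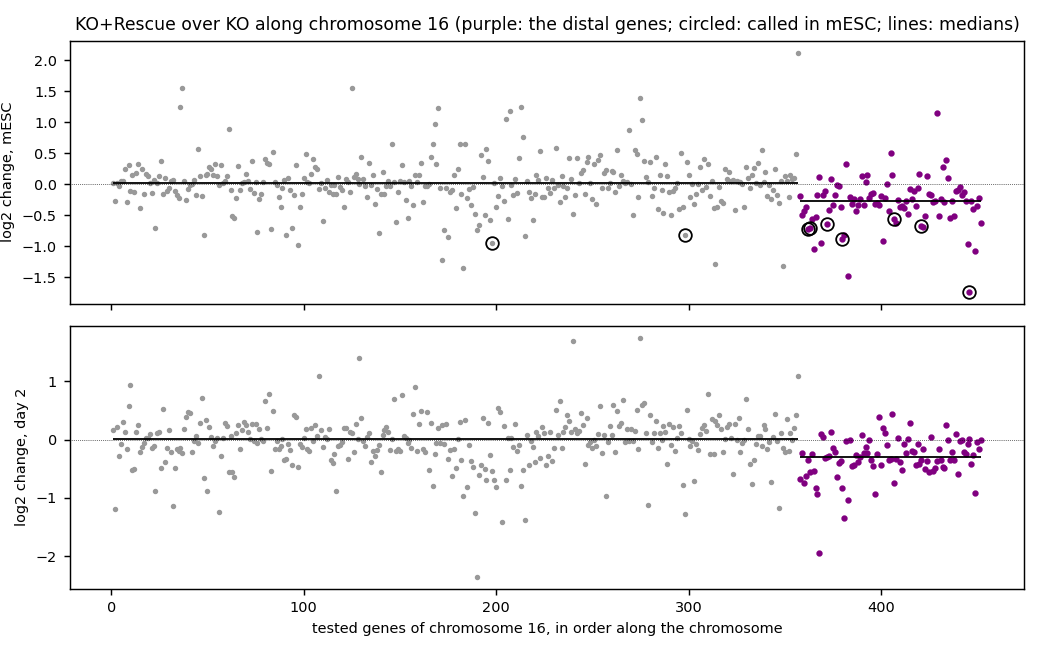
Genes of chromosome 16 in their order along the chromosome with the log2 change of KO+Rescue over KO, in mESC and at day 2, where purple points lie from 60 Mb onwards, circles mark called genes and lines mark medians. In mESC the distal median was -0.27 and the proximal one 0.02, and at day 2 they were -0.30 and 0.00.

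The same 2 lines were also sequenced after 48 hours in N2B27, in 4 libraries that this comparison does not share. There 281 genes (1.83%) differed between KO+Rescue and KO, 77 higher (0.502%) and 204 lower (1.33%). Of the 159 genes that fell in mESC, 34 were called lower at day 2 (21.4% of the 159 and 16.7% of the 204) and 0 higher, with a median day 2 change of -0.49 against -0.02 for all genes. Of the 73 that rose, 5 were called higher at day 2 (6.85% of the 73 and 6.49% of the 77) and 1, Lefty1, lower, with a median of 0.18. At day 2 the fitted direction was that of mESC in 132 of the 159 and 54 of the 73. Both comparisons take the spread of each gene from the same fit and use the same 2 lines. Calls at both stages are therefore not independent.

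The 5 genes called higher at both stages were Proser1, Bahcc1, Kdelr3, Ptrf and Rab6b, of which the last 3 were named after their values were seen. Kdelr3, a receptor that returns proteins to the endoplasmic reticulum, rose from 501 and 517 to 1001 and 1350 in mESC and from 104 and 99.5 to 218 and 284 at day 2. Ptrf, a coat protein of caveolae, rose by 1.11 in mESC and 1.18 at day 2. Bahcc1 rose by 1.30 at day 2 (adjusted p = 0.0359 by limma), and Proser1 by 1.64 (adjusted p = 0.00122 by limma).

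Among genes lower at both stages, Rian went from 8732 and 9014 normalised counts in KO to 3413 and 3322 in KO+Rescue at day 2, a fall of 1.40 (adjusted p = 0.00582 by limma). Klhl13 went from 3411 and 3952 to 1778 and 1692, Hmga2 from 861 and 959 to 422 and 367, and Bin1 from 2290 and 2251 to 779 and 717. Enpp2 went from 2916 and 2893 to 1270 and 1029 (adjusted p = 0.0277 by limma). KO+Rescue stayed below KO for these 5 genes at day 2, again without overlap. Fam198b, Meis2, Sytl1, Ppp4r4, Cald1, App, Cggbp1 and Ifnar1 were called lower at both stages too.

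Other genes that changed in mESC did not pass at day 2. Evc differed there by 0.16 and Evc2 by 0.15, Gli1 by -0.33, Gbp2 by -0.07, Grb10 by -0.27 and Wnt8a by -0.78. A call at 1 stage and not at the other does not show that the stages differ. The difference between the stages was tested as an interaction in the same fit, where 13 genes passed (0.0847%), 5 of them called in mESC. Sema6a was one, with 14.6 and 14.2 normalised counts in KO+Rescue and 78.4 and 78.2 in KO in mESC, but 3508 and 3313 against 3323 and 3637 at day 2. The other 4 were Lefty1, Lefty2, Foxn4 and Ube2l6.

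**Figure D5:**
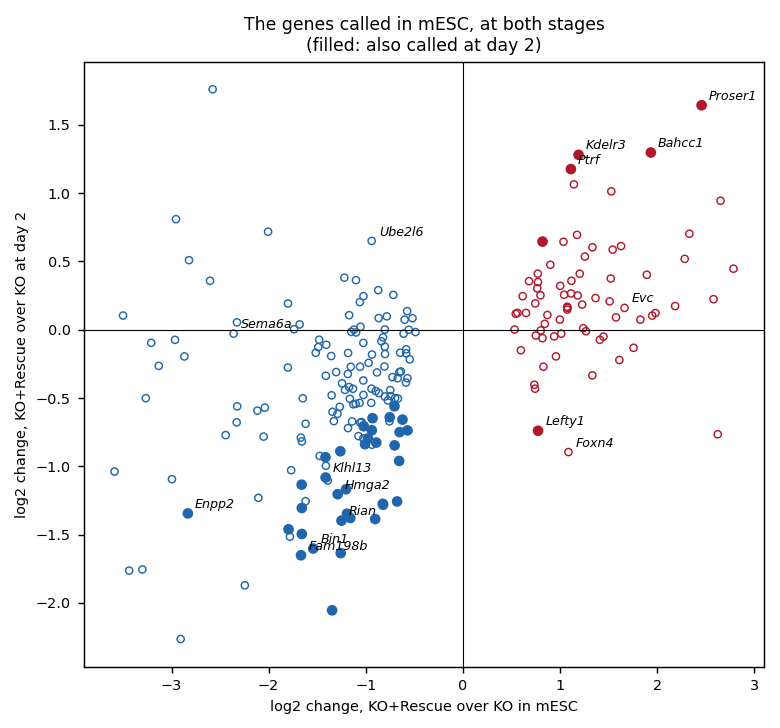
Log2 change of KO+Rescue over KO for the 232 called genes, in mESC on the horizontal and at day 2 on the vertical axis, filled where also called at day 2. Falling genes lie mostly below 0 at day 2 as well (132 of 159), and the risers spread around their day 2 median of 0.18.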

How the data were processed

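RNA was extracted with an RNeasy kit and libraries were made with a directional kit. The authors deposited a gene-level signal, read counts normalised with DESeq2 size factors. Before this came Trimmomatic trimming, paired mapping to mm10 with STAR and counting of read pairs over RefSeq genes with featureCounts. The study's methods also describe removal of reads mapped to chromosome Y, but the deposited values hold such reads, as given above. Tool versions and the strand setting of the counting are not given in the sources used here, and 40 of the 80 genes named by rule overlap another RefSeq gene. Every value was a whole multiple of 1 read (100% within a tolerance of 0.001), so whole reads and library totals, from 38634668 to 66450803, were recovered. Replicates differed beyond sampling noise, with a chi-square per degree of freedom of 15.5 or more. All per-sample columns were used.

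A pseudocount of 1 was added before the log2 was taken, so changes of low genes are understated. Normalised counts are not divided by gene length and compare libraries, not genes. Genes with a mean of at least 10 were tested with limma 3.58.1 in R 4.3.3 (intensity trend, 6 group means, 12 libraries, 6 residual and 6.92 prior degrees of freedom). Two-sided p-values were adjusted by Benjamini and Hochberg over the 15341 genes of each contrast, and an adjusted p under 0.05 was called. Errors are standard errors of the fit. edgeR 4.0.16 (quasi-likelihood) and DESeq2 1.42.0 on the recovered reads served as alternatives, with 298 adjusted p-values of DESeq2 not available. Other alternatives were equal library totals, TMM scaling, pseudocounts of 0.5 and 5, no filter and a mean of at least 50, fewer libraries, leaving out each library, and the library letter as a replicate block. The limma fit was tested on simulated data, and those of edgeR and DESeq2 were not. Floors of 3 counts cover counting error only.

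Genes were named by rule: Proser1, the 15 largest changes in each direction among called genes with a mean of at least 50 in the higher group and no overlap, for each list the called members of smallest adjusted p (at most 4), replaced by its highest-mean gene if no member was called, and the study's own targets. Some genes are not reported here. Highest-mean genes of lists without a call included Dpy30, Dppa5a, Cdx1, Zic2, Etv5, Pim3, Bmpr1a, Lin28a, Hspa8, Cdk4, Pkm, Fdps, Rps3 and Atp5b, none of them called by limma. The comparison, the 38 gene lists (795 genes) and the rule were chosen with earlier results of these data known. Positions and the 250-base promoters came from RefSeq (GRCm38.p6), the guide from the study's oligo table, and figures were drawn with matplotlib 3.10.9.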

Additional observations from a re-analysis of the deposited data

Results flagged for a closer look

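For 13 genes the change of KO+Rescue over KO differed between day 2 and mESC by a test of that difference itself, an interaction in the limma fit. The values that follow, for 12 of them, are the day 2 change minus the mESC change on the log2 scale, with the mESC and the day 2 change after each.

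The 13 held 3 of the 18 tested Nodal pathway genes and 1 of the 16 tested mesendoderm genes, and each of these 4 had a lower change at day 2 than in mESC. The difference was -2.64 for the T-box factor Eomes (0.32 and -2.31), -1.51 for Lefty1 (0.77 and -0.74), -1.14 for Lefty2 (0.74 and -0.40) and -1.31 for Nodal (-0.20 and -1.51). Lefty1 was thus called higher in mESC and lower at day 2, where the 2 KO libraries had 3898 and 2971 normalised counts, above the 1918 and 2165 of KO+Rescue. Trh, the precursor of thyrotropin-releasing hormone, had a difference of -2.77 ± 0.19 (0.56 and -2.22, adjusted p = 3.06e-05 by limma). At day 2 the KO libraries had 12233 and 11450 normalised counts of Trh, and KO+Rescue 2685 and 2413, without overlap. Foxn4 gave -1.98 (1.09 and -0.90) and Pid1 -1.02 (-0.11 and -1.14).

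In the opposite direction differed 5 genes. Sema6a gave 2.33 (-2.36 and -0.03), the imprinted retrotransposon-derived gene Peg10 1.66 (-0.68 and 0.98), Ube2l6, an enzyme that attaches ISG15, 1.59 (-0.94 and 0.65), the germ cell factor Dmrt1 1.41 (-0.32 and 1.09) and Trap1a 1.37 (-0.15 and 1.22). Apart from Trh, the adjusted p of the 13 in limma ran from 0.0154 to 0.0472. When 1 library was left out, 1 or 2 genes passed, and in each of the 8 such fits 1 of the genes given here.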

How the results depend on the processing

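Proser1 rose and passed in all 15 alternatives, at 2.36 to 2.56 when 1 library was left out. The 77 other called genes named in the report kept their direction in the alternatives that gave them a value, and 0 of them passed in every one. In 432 gene and alternative pairs the call was lost. The number called was 232, against 386 with DESeq2, 13 with the mESC libraries alone, 1 with the 4 libraries alone, and 22 to 170 with 1 library left out, where fewer samples estimate the spread. With libraries set to equal totals 165 passed and with no filter 160. Rising genes were 73 of 232, but 35 of 159 in edgeR, 23 of 165 at equal totals, 37 of 170 without KO+Rescue A and 7 of 44 without KO+Rescue B, and the cause was not tested. The count of genes that differed between stages was 13, against 90 with DESeq2, 7 at equal totals, 4 with no filter and 1 to 2 with 1 library left out.

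Nothing says that a letter marks a shared culture. Deviations of A from B correlated at 0.125 between KO and KO+Rescue mESC, at 0.167 and 0.171 between each of these and WT mESC, and at -0.0481 to 0.413 over all 15 pairs of groups. With the letter as a replicate block 584 genes passed (268 rose and 316 fell), so that the share that rose was nearer to even than the 73 of 232 without the block, and 65 differed between stages. With the block 0 of the 77 lost the call, while Krt19, Psmb9, Tbx15, Dppa3 and Jun, not called without it, passed.

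Small differences of genes that were not called turned sign in some settings. Pkm was at -0.0058 in edgeR, -0.0074 with TMM and -0.097 at equal totals, where Trim28 was at -0.049, Lin28a at -0.081 and Hspa8 at -0.0038. With 1 library left out, the values ran from -0.031 to 0.073 for Pkm, -0.027 to 0.17 for Trim28, -0.14 to 0.21 for Lin28a, -0.14 to 0.088 for Pou5f1, -0.045 to 0.019 for Cdk4, -1.89 to 0 for Prdm8, -0.22 to 0.47 for Pax6, -0.20 to 0.53 for Dppa5a, -0.031 to 0.60 for Rps3 and -1.68 to 0.37 for Mef2c.

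Depth limits the low genes: 30 of the genes that fell and 17 that rose had means under 50 in both groups.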

Other observations

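The promoters of the genes that changed differed in their CpG content by direction. In windows from 250 bases before to 50 after the start (GRCm39, GENCODE annotation, found for 95.5% of tested genes), the median number of CpG was 16 over all tested genes, 16 over the genes that rose and 11 over those that fell. Fewer than 10 CpG were found in 26.9% of all windows, in 31.9% of those of risers and in 45.9% (73 of 159) of those of fallers. This is a description with no test.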
